A study of Mus musculus with 2 samples.

Results

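Transcripts of 10 genes of the insulin-like growth factor (IGF) system were followed in mouse growth plate cartilage: the ligands Igf1 and Igf2, the receptors Igf1r and Igf2r, the binding proteins Igfbp2, Igfbp3, Igfbp4, Igfbp5 and Igfbp7, and the protease Pappa2. They were taken by gene symbol, with every probe set that names 1 of these genes alone. This gave 28 probe sets for 10 of the 18194 named genes on the array. The 2 Affymetrix arrays carried RNA of wild-type C57BL/6J mice at the stage E17.5, shortly before birth, and the labels name no transgene and no treatment for either. The first group, called round here, was labelled as round chondrocytes of cartilage, and the second group, called columnar/hypertrophic, as columnar and hypertrophic chondrocytes of cartilage. Each group was a single array made from the mixed RNA of 3 pieces of cartilage plate, so the spread between animals or pieces was not measured and no value below carries a replicate error or a p-value. The pieces were enriched in the named cells, so other cells may be present, and columnar and hypertrophic cells share 1 array.

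IGF1 and IGF2 are secreted peptides that promote growth of cartilage and bone by binding the tyrosine kinase receptor IGF1R. The other receptor, IGF2R, takes IGF2 into the cell for degradation. IGF binding proteins hold the ligands in the extracellular space and along matrix, and secreted proteases such as PAPPA2 cut some of them and release the ligand. In the growth plate, IGF signalling is known for promoting proliferation and the enlargement of hypertrophic cells.

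Signals of 4 binding protein genes and of Pappa2 were at least 2-fold lower in the columnar/hypertrophic sample, while those of Igf2 and both receptor genes were within 2-fold. Igfbp5 was at least 87.2-fold lower there, Pappa2 7.17-fold, Igfbp7 3.66-fold, Igfbp4 2.52-fold and Igfbp3 at least 2.07-fold. By the brightest probe set of each gene, 5 of 10 passed 2-fold downwards and 0 upwards. Over the 11704 genes measured, 6.37% (745) did so downwards and 4.31% (504) upwards, a split that turned to 414 and 943 when the array medians were set equal. The median difference of the 10 genes on the log2 scale was -0.82, against -0.05 over all genes measured. The 10 genes were chosen with earlier results of these data known, so neither comparison is a test of them. Igf1, Igfbp2, Igfbp3 and Igfbp5 exceeded the signal floor described below on the round array alone. With that floor they could only come out lower, and they enter the count and the median. With the mean over all probe sets of a gene, the count of 5 fell to 2. Because the samples are bulk tissue, fewer cells of a type and less RNA per cell cannot be told apart in them.

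The unit throughout is the MAS5 signal, a linear fluorescence value scaled so that both arrays have the same trimmed mean. A floor of 100.5, from probe sets of chemosensory receptor genes that cartilage should not express, marks signals too weak to compare. Where 1 of the signals is under the floor, the fold is a lower limit, called a bound here. Each of the 10 genes exceeded the floor on 1 or both arrays, but Igf1, Igfbp2, Igfbp3 and Igfbp5 were so on the round array alone, so their direction follows from that filter. Differences are log2 values of the columnar/hypertrophic array minus the round array. As a technical scale, the differences of several probe sets for the same gene had an SD of 0.37 over 4827 genes, which is not an error between samples.

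**Figure D1:**
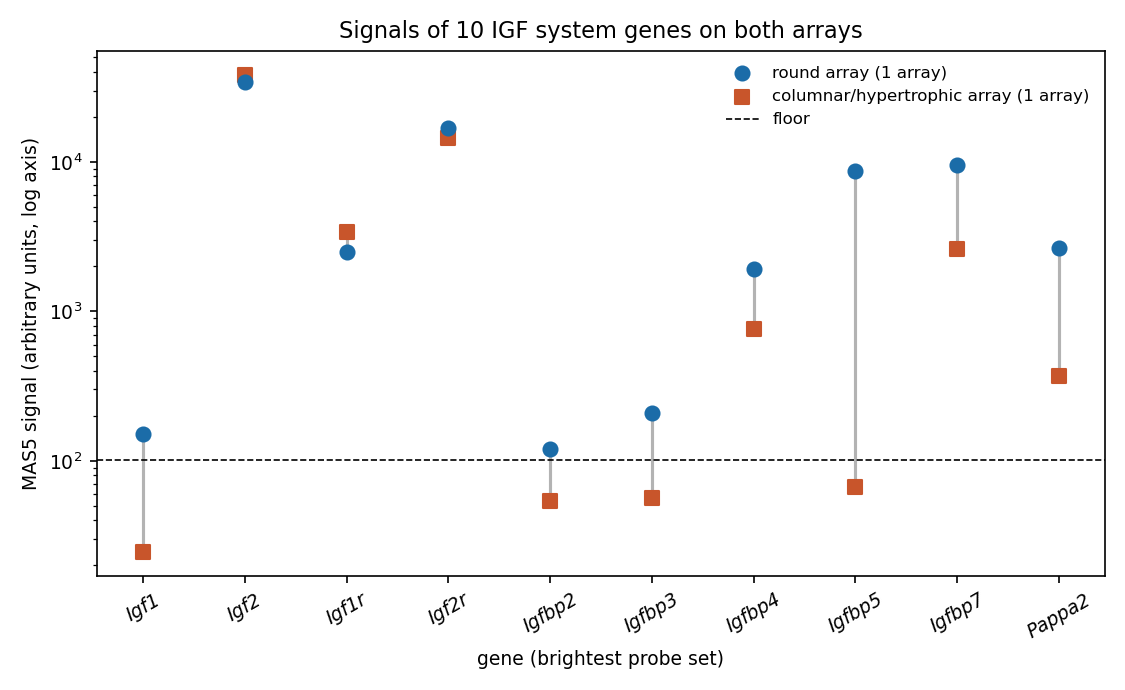
MAS5 signal (vertical, arbitrary units, log axis) of the brightest probe set of each gene in round (circles) and columnar/hypertrophic cartilage (squares). Each symbol is 1 array, and the dashed line marks the floor, 100.5. Igf2, Igf1r and Igf2r lie close together on both arrays, Igfbp5 goes from 8761 to under the floor, and Pappa2 goes from 2640 to 368.

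The zone labels were set beside marker genes, from lists chosen with earlier results of these data known. The comparison is therefore no independent check of the labels. Signals of Col10a1, which encodes a collagen made by hypertrophic chondrocytes, were 24.2 in the round and 10818 in the columnar/hypertrophic sample, and those of Ihh, the hedgehog ligand of prehypertrophic cells, were 143 and 2153. The joint surface genes Prg4 and Wif1 had 2821 and 45.2, and 2378 and 110.7. Of the 8 chondrocyte markers, 8 were within 2-fold, among them Sox9 (7815 and 7203), Col2a1 (33307 and 37936) and Acan (25528 and 32746). Of 7 measured hypertrophic markers 6 passed 2-fold upwards, and all 7 markers of round and joint surface cells passed it downwards. Markers listed for other tissues differed too. Of 12 fibrous tissue markers 10 were measured, 8 of them past 2-fold downwards and 0 upwards, with a range of differences from -3.60 to 0.17. The summed signal of the 12 came to 110449 in round and 52954 in columnar/hypertrophic cartilage, and that of Col1a1, a fibrous collagen gene, 1672 and 696. Most of both sums came from Col1a2, Col3a1, Dcn and Lum, of which Lum did not fall (a difference of 0.17). Of 6 endothelial markers 5 fell short of the floor in both samples, Pecam1 (10.3 and 7.56) among them, and the 6 summed to 362 and 269. Of 10 muscle markers 4 were measured, with Des at least 2.56-fold lower (257.6 and 29.1) and Tnnt3 at least 4.26-fold higher (63.4 and 428.5), while Myh3 (7.97 and 3.65) fell short of the floor, and the 10 summed to 847 and 740. Of 7 blood and macrophage markers 3 were measured and 0 passed 2-fold, though Cd68 gave only a bound (130.3 and 70.5), and the 7 summed to 571 and 377. Of 6 osteoblast and osteoclast markers 2 were measured and the rest fell short of the floor in both samples. The 6 summed to 1102 and 2568. The 2 measured ones went different ways. Sp7, an osteoblast factor gene, was 11.4-fold higher (170.3 and 1940), and Ctsk had 803 and 522, a difference of -0.62. Whether bone cells or hypertrophic chondrocytes gave the Sp7 signal was not tested. The sums add raw signals, those under the floor included, which make up most of the endothelial sum. Such sums are no measure of how much of a tissue was present. The part of these tissues in the differences of IGF system genes was not tested.

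Igfbp5 encodes a binding protein that attaches to extracellular matrix and hydroxyapatite. The signal of its brightest probe set was 8761 in round cartilage and 67.1 in columnar/hypertrophic cartilage. With this floor the bound of -6.45 was the lowest value among the 11704 genes. The other probe set had 450 and 56.2, a bound of -2.16, or at least 4.48-fold. Both probe sets were therefore well above the floor on the round array and under it on the other. The brighter probe set carries the suffix for sets that can match more than 1 transcript, and without it the bound is -2.16.

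Igfbp7 encodes a secreted protein of blood vessels and matrix that binds IGFs only weakly and insulin as well. Its brightest probe set went from 9599 to 2623, a difference of -1.87, and ranked number 156 of 11704 from the lowest. The second probe set had 173.9 and 51.8, a bound of -0.79. The last of its 3 probe sets stayed below the floor throughout (38.3 and 30.3). Averaged over the probe sets above the floor, the difference of Igfbp7 was -1.33, and averaged over all 3 it was -0.89, short of 2-fold. Of the 6 endothelial markers given above 1 was measured, Esam, with a bound of -0.59 (151.7 and 65.4). The part of vessels in the difference of Igfbp7 was not tested.

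Igfbp4, whose protein is cut by the protease PAPPA, was measured by 6 probe sets, 5 of them above the floor on both arrays. The brightest had 1933 and 767, a difference of -1.33. The differences of the remaining 4 were -1.25, -1.15, -0.84 and -0.47, so that 3 of 5 passed 2-fold and all 5 lay under 0. The probe sets at -1.15, -0.84 and -0.47 carry a suffix for shared sequence. The sixth stayed below the floor throughout (16.6 and 12.7). Igfbp4 was thus the binding protein gene with the most probe sets, which are not replicates since they read the same RNA.

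Igfbp3, the main carrier of IGFs in blood, was weak in both zones. Its probe sets had 208 and 56.0, and 168 and 3.41, which gave bounds of -1.05 and -0.74. The 2-fold call thus rests on 1 probe set, which carries the suffix for shared sequence as well, and with a floor at the 99th percentile of the same receptor genes the bound was -0.52. Igfbp2, a binding protein with preference for IGF2, was hardly above the floor on the round array (119.6) and under it on the other (53.9). Its bound was -0.25, and how much lower it was cannot be told.

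**Figure D2:**
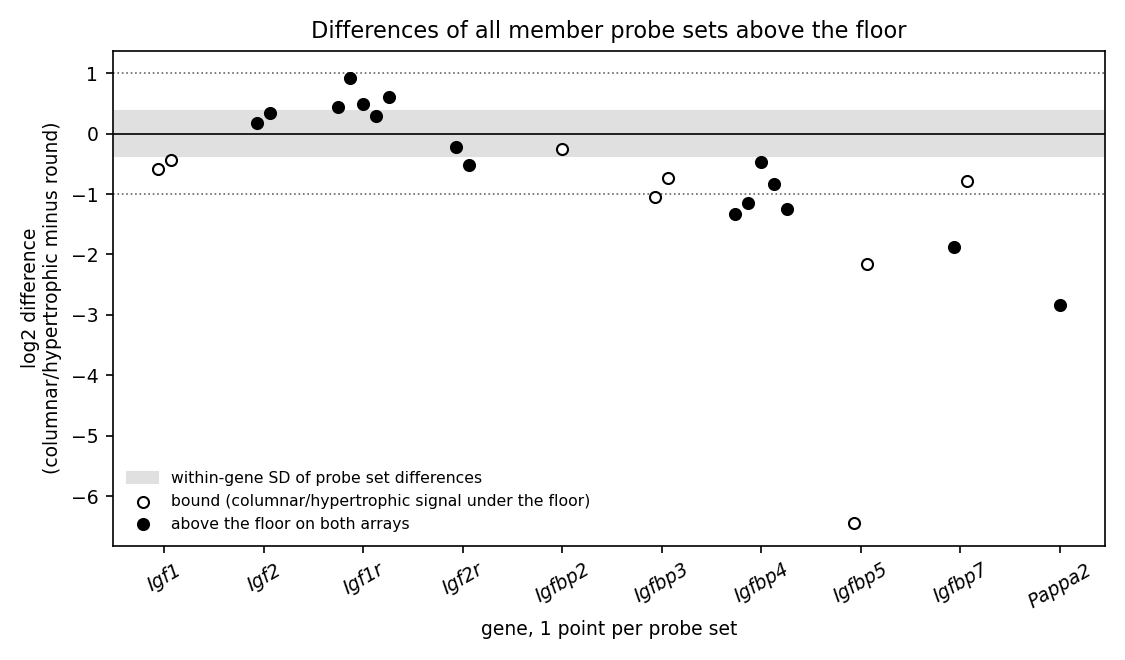
Log2 difference (vertical, columnar/hypertrophic minus round) of the 24 probe sets above the floor on at least 1 array, 1 point per probe set and grouped by gene, with filled points above the floor on both arrays, open points for bounds, dotted lines at 2-fold and a grey band for the within-gene SD of 0.37. All 5 Igf1r points lie above 0 and all 5 Igfbp4 points under 0, and the Igfbp5 bounds are -6.45 and -2.16.

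Pappa2 encodes a metalloproteinase that cuts IGFBP3 and IGFBP5. The gene has 1 probe set here, with 2640 in round and 368 in columnar/hypertrophic cartilage. This was a difference of -2.84, the largest of the 6 among the 10 genes that had a signal over the floor in both samples, and number 41 of 11704 from the lowest. No second probe set was at hand to check it. Its relative Pappa, which cuts IGFBP4, had 424 and 113, a difference of -1.90, with a second probe set at a bound of -0.52 (144.3 and 39.6).

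The secreted inhibitors of these proteases, the stanniocalcins, did not go one way. By its brightest probe set Stc2 was 2.25-fold higher in columnar/hypertrophic cartilage (567 and 1274). The other Stc2 probe sets differed by 1.54 and 0.002. Stc1 had 532 and 345, a difference of -0.62.

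Igf2, the main ligand gene of fetal growth, gave strong signals in both zones. Its probe sets had 34173 and 38413, and 3719 and 4740, with differences of 0.17 and 0.35. Both are within the technical scale of 0.37, and the sign of the first turned after lowess centring (-0.09). Whether the first probe set was near saturation was not tested. Igf1 was the opposite case, with all 4 probe sets weak. The 2 above the floor had 150.1 and 24.6, and 137 and 20.5, giving bounds of -0.58 and -0.44. The other 2 had 58.3 and 10.1, and 51.3 and 4.82, all under the floor. None of the 4 could pass 2-fold downwards, since the round signals lie near the floor or under it. Without a floor the brightest differed by -2.61, but from signals at or near those of genes that cartilage should not express.

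Igf1r, the signalling receptor gene, was somewhat higher on the columnar/hypertrophic array in all 5 of its probe sets. The brightest had 2492 and 3395, a difference of 0.45. The others had differences of 0.93 (1948 and 3707), 0.49 (1097 and 1542), 0.29 (608 and 742) and 0.61 (102.8 and 156.9). None reached 2-fold. Under the other scalings of the arrays the difference of the brightest lay between 0.36 and 0.73, always above 0. Igf2r, the clearance receptor gene, had 16883 and 14478 by its brightest probe set and 10558 and 7373 by the other. These were differences of -0.22 and -0.52, and with equal array medians the first was 0.06, so its direction was not settled.

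Counted by probe set, 8 of the 24 with a value passed 2-fold downwards and 0 upwards. Among all 21598 such probe sets that name 1 gene, 6.00% passed downwards and 4.26% upwards. Of the 24, 8 are bounds, each over the floor in round cartilage alone, so that their sign was set by the filter. Of the other 16, measured in both samples, 9 lay under 0 and 7 above it, and all 7 belonged to Igf2 and Igf1r. Among the 10236 genes so measured, 52.3% lay under 0. That is a share of genes and not of probe sets, so the figures are not like for like.

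**Figure D3:**
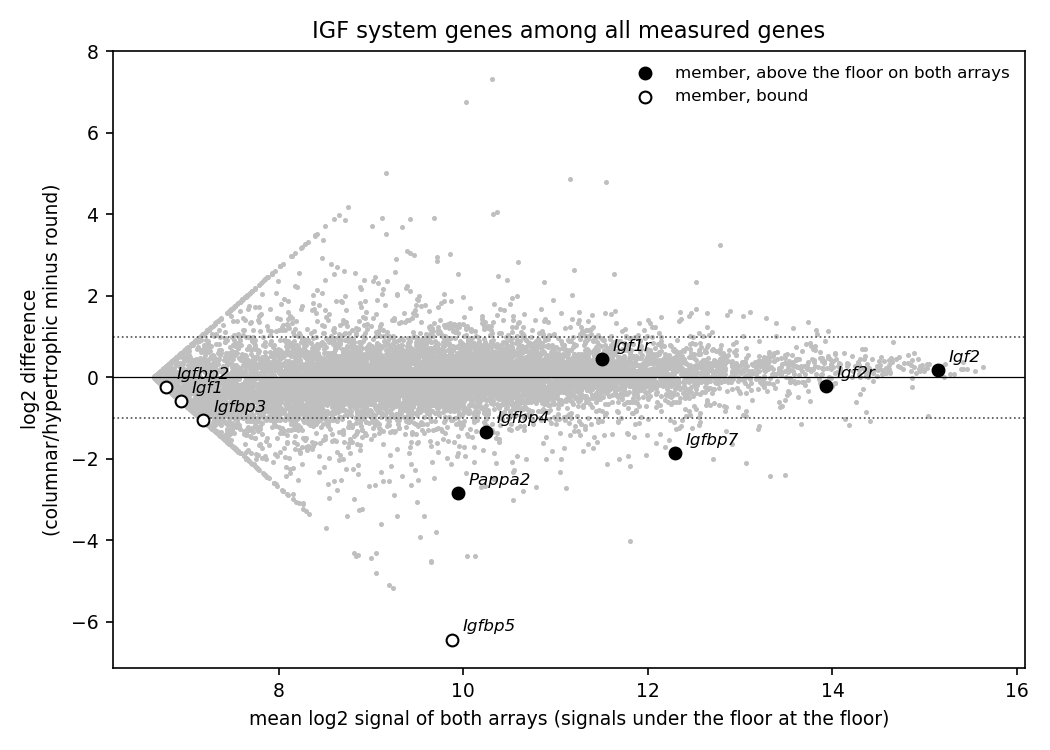
Log2 difference (vertical, columnar/hypertrophic minus round) against mean log2 signal (horizontal, signals under the floor set to it) of the 11704 measured genes in grey, with the 10 IGF system genes in black and open circles for bounds. Igfbp5, Pappa2, Igfbp7 and Igfbp4 lie under the dotted 2-fold line, as does the bound of Igfbp3 by a small margin. Igf2 and Igf2r lie near 0 at high signal.

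The promoters of the 5 genes called at least 2-fold lower are shown, Igfbp3 among them, whose call was lost under several other settings. Each run holds the 100 bases before the RefSeq start, 5′ to 3′ on the strand of the gene, build GRCm38.p6. Capitals mark TATA-like letters (TATAAA, the spelling TATATA and the spelling TATTTAA) and the GC box core GGGCGG, all searched on both strands. The arrays do not show which start was used. The windows are chr1:72874866-72874965 for Igfbp5, chr11:7213924-7214023 for Igfbp3, chr5:77408046-77408145 for Igfbp7 and chr1:158958176-158958275 for Pappa2, all on the minus strand, and chr11:99041144-99041243 on the plus strand for Igfbp4.
Igfbp5: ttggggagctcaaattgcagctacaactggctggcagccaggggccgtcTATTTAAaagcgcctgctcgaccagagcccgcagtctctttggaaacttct
Igfbp3: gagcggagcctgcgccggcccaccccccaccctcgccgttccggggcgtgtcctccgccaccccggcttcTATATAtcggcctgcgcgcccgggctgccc
Igfbp4: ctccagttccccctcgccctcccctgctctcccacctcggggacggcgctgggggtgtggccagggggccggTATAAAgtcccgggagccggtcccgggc
Igfbp7: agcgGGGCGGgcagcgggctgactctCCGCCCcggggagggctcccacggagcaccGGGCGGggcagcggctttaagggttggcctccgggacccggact
Pappa2: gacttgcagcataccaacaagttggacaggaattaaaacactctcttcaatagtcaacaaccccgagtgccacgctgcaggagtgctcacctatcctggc

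Counting -1 as the last base before the start, Igfbp5 held TATTTAA from -51, Igfbp3 TATATA from -30 (these letters read the same on both strands) and Igfbp4 TATAAA from -28. Any of these 3 spellings occurred in 8.38% of 32851 RefSeq promoter windows of 100 bases. The spellings were chosen after the sequences had been seen. Igfbp7 held GGGCGG from -96 and -44 and its reverse complement from -74, and 24.7% of windows held it at least once. Pappa2 held none of the 4 motifs. Of the other 5 genes, Igf1r, Igf2r, Igfbp2 and Igf2 held GGGCGG in the window of at least 1 RefSeq start, and Igf1 held none of the 4 motifs. These matches describe letters and show no bound factor.

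Other genes of the pathway were taken from lists, also chosen with earlier results of these data known. Their counts are therefore no test against the share of all genes. Of 80 genes, 72 were on the array by a probe set of their own and 63 above the floor. Of these, 10 passed 2-fold downwards and 4 upwards, with a median of -0.17, where 6.37% and 4.31% of all measured genes did so. With equal array medians the counts were 6 and 7 of 62, and with the mean over all probe sets 5 and 2 of 63. The remaining binding proteins were barely measured. Igfbp1 (6.49 and 10.7) and Igfbp6 (67.5 and 59.5) stayed below the floor, and Igfals, which encodes the subunit that stabilises IGF complexes in blood, had 111.9 and 97.0.

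Of 13 other genes whose proteins carry an IGFBP domain, 10 were measured, and 2 of them passed 2-fold downwards and 0 upwards. Kazald1, a secreted protein gene linked to bone formation, had 3730 and 1072, a difference of -1.80. Ccn3, a matricellular protein gene, had bounds of -1.68 (323 and 23.7) and -1.27. The median of the 10 was -0.23. With equal array medians it was -0.03, and 1 gene then passed 2-fold upwards.

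Growth hormone acts through its receptor, JAK2 and STAT5 to induce Igf1, and SOCS proteins limit that signal. Of 8 measured genes of this axis, 4 passed 2-fold downwards and 0 upwards, with a median of -0.84. Of all measured genes 6.37% passed downwards, but this list was chosen with earlier results of these data known. All 8 differences lay under 0, but that of Socs1 is a bound with its sign set by the filter, and that of Socs2 (-0.24) turned to 0.04 with equal array medians. The receptor gene Ghr went from 8416 to 2565 by its brightest probe set, 3.28-fold lower, and the others gave 3.28-fold and 2.62-fold. Socs3, an inhibitor of JAK signalling, had 448 and 186.4, a difference of -1.27, with bounds of -2.57 and -2.74 by the others. The kinase gene Jak2 (3157 and 1529) and Stat5a (312 and 153.6), a transcription factor gene, passed 2-fold only just, at -1.05 and -1.02. With equal array medians the median of the axis was -0.56 and 1 gene, Ghr, stayed past 2-fold, with quantile normalization 3 did, and with the mean over all probe sets 2.

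Among 11 measured receptor substrates and adaptors, 1 passed 2-fold, Grb14, which encodes an adaptor that inhibits insulin receptor signalling. It went from 239 to 1971, 8.26-fold higher. Its other probe set was too weak to compare (29.9 and 58.1), and the mean over both gave a difference of 1.52. Irs1, the main substrate of IGF1R, had 11785 and 14232 (0.27), and Irs2, the related substrate, 236 and 377 (0.68). The median of these genes was 0.27. Insr, the insulin receptor gene, had 2484 and 1408, a difference of -0.82, while Insrr (4.69 and 22.2) and Ins2 (55.2 and 72.2) were too weak to compare.

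Of 26 measured genes of the PI3K, AKT, FOXO and mTORC1 branch, 2 passed 2-fold downwards, 2 upwards and 22 did not pass, some of them bounds. The median was -0.06. With equal array medians 4 passed upwards, and with the mean over all probe sets 0 passed downwards and 1 upwards. Pik3r1, a regulatory subunit gene of PI3K, was 2.61-fold lower (1126 and 432), and its other probe sets differed by -1.55 and -0.54, with a bound of -0.45 for the last. The forkhead factor genes went different ways. By the brightest probe set Foxo3 was 2.58-fold lower (2119 and 822), with a difference of -0.55 by the next. Foxo4 was 2.50-fold higher (975 and 2435), with a difference of 0.76 by the next. Eif4ebp1, a translation inhibitor gene downstream of mTORC1, was 2.03-fold higher (2179 and 4433), a log2 difference of 1.02, but its other probe sets differed by 0.69 and 0.01 and quantile normalization gave 0.95. The IGF2 mRNA binding protein genes Igf2bp1 (441 and 378) and Igf2bp3 (814 and 565) differed by -0.22 and -0.53, and Igf2bp1 had other probe sets above 0. The other Igf2bp3 probe sets lay between -0.39 and 0.07.

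**Figure D4:**
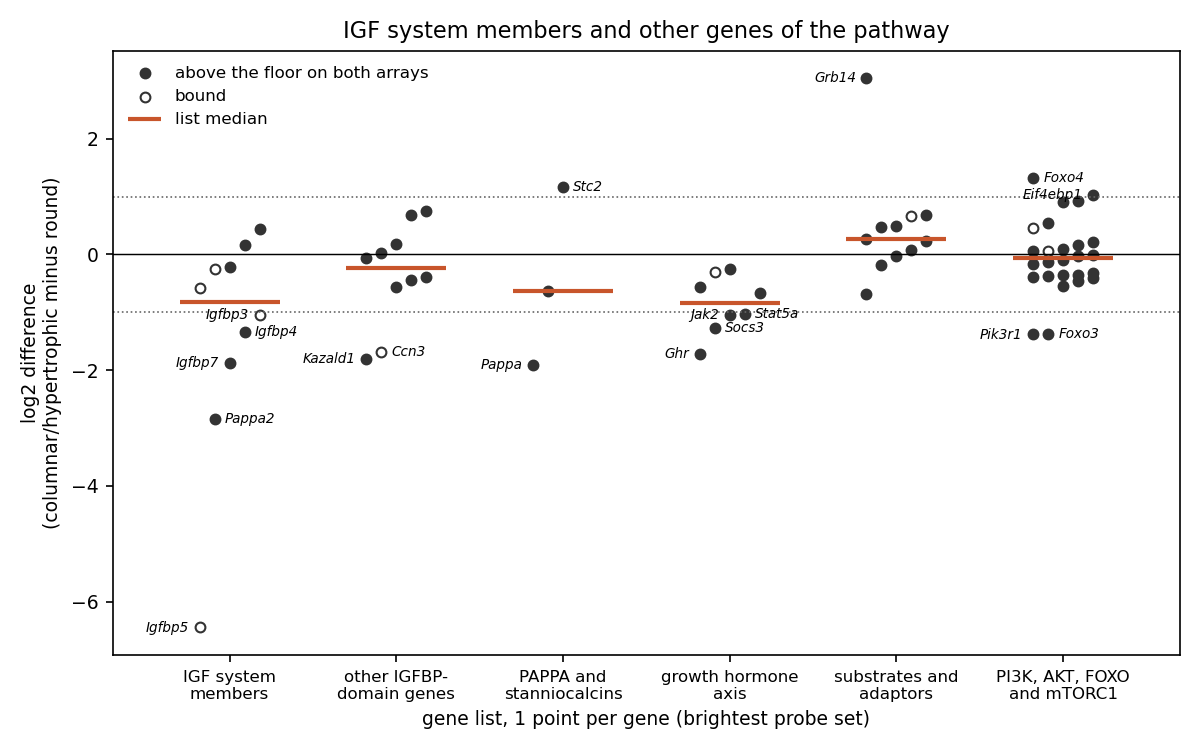
Log2 difference (vertical, columnar/hypertrophic minus round) of the 10 IGF system genes and 5 other lists (horizontal), 1 point per measured gene by its brightest probe set, with open points for bounds, bars for list medians and names for genes past 2-fold (dotted lines). The growth hormone axis has a median of -0.84 and 4 genes past 2-fold, the PI3K, AKT, FOXO and mTORC1 genes spread around -0.06, and Grb14 stands at 3.05.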

How the data were processed

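Biotin-labelled cRNA made from total RNA was hybridised, 1 array per group. The deposited intensities are linear signals, 1 for each of 45101 probe sets, and the submitters' processing notes name MAS5. Its version is not given in the sources used here. The methods of the study name RMA, which gives log values and does not match this file. The trimmed mean (2% off each end) was 500.0 on both arrays. Medians were 128 and 105, and 55.0% and 50.8% of probe sets lay above the floor.

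Gene names came from the platform annotation, in which 34958 had 1 symbol, 932 several and 9211 none. Symbols were updated through Entrez identifiers (34754 matched) to RefSeq of assembly GRCm38.p6. The floor of 100.5 was the 95th percentile over 87 chemosensory receptor probe sets. Signals under it were raised to it before log2 was taken, and each gene was read by the probe set of highest mean log2 signal. With 1 array per group no test was possible, and the number of arrays limits precision. Genes were called at 2-fold. The calculation was tested on simulated data. Alternatives covered scaling (equal medians, quantile normalization and lowess with a span of 0.3), floor (90th and 99th percentile, or none), probe set choice and threshold. The 10 genes and the lists were chosen with earlier results of these data known. Genes of the pathway lists were named where they passed 2-fold, belonged to a list of up to 5 genes or were Irs1, Irs2 or Insr, neighbours of the 10 where they had a value, and of the markers only defining ones. Des, Tnnt3, Sp7, Ctsk, Esam, Cd68, Col1a2, Col3a1, Dcn, Lum, Socs1 and Socs2 were named after their values were seen. Grb10 is also in the list of imprinted genes, and the motif spellings were chosen after the sequences were seen. Python 3.11.15, numpy 2.4.6, pandas 2.3.3 and statsmodels 0.14.6 were used.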

Additional observations from a re-analysis of the deposited data

How the results depend on the processing

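The count of 5 genes at least 2-fold lower was 2 with the mean over all probe sets of a gene (Igfbp5 and Pappa2) and 3 at a threshold of 3-fold (Igfbp5, Igfbp7 and Pappa2). Under the other settings it lay between 4 and 7, with 7 when no floor was applied, which added Igf1 and Igfbp2. Igfbp5 and Pappa2 passed under every setting run. Igfbp3 dropped out with each of the 3 other scalings, the 99th percentile floor, both means over probe sets, and the omission of shared probe sets. The count of genes at least 2-fold higher was 0 under all of them.

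Among the 6 genes measured in both samples, 52 of 54 recomputed differences kept their sign. The exceptions were Igf2 (-0.09 after lowess centring) and Igf2r (0.06 with equal medians). The sign of the other 4 genes is set by the floor wherever one was applied. Over all 10 genes, 13 of 87 recomputed differences moved by more than the within-gene SD. Igfbp5 ranged from -7.03 without a floor to -2.16 without shared probe sets. Setting the medians equal moved the median of all genes from -0.05 to 0.22. The share of lower genes among all calls was then 30.5%, against 59.6% as reported. The median over the genes studied was then -0.79, over 9 of them, since Igfbp2 had no value. Signal over background limits Igf1, Igfbp2 and Igfbp3 most. No paired analysis was possible because each group is 1 array.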

Other observations

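Neighbours here are the nearest protein-coding genes on each side of the 10 in assembly GRCm38.p6, so RNA genes in between are passed over. Those above the floor on both arrays had differences within 2-fold, apart from Adgrl3. Igfbp2, Igfbp5, Mas1 and Pmch gave bounds, and of these only Igfbp5 passed 2-fold. Igfbp2 and Igfbp5 are neighbours on chromosome 1, with bounds of -0.25 and -6.45, and Tnp1 on the far side of Igfbp5 was too weak to compare (3.34 and 13.3). Rpl37a, a ribosomal protein gene on the far side of Igfbp2, had 23709 and 25420. On chromosome 11, Igfbp1 beside Igfbp3 was under the floor, while Tns3 on its other side had 8382 and 5410, a difference of -0.63. Mrpl23 beside Igf2 differed by 0.63, and Mas1 beside Igf2r and Pmch beside Igf1 had bounds of -0.53 and -0.05. Top2a beside Igfbp4 differed by 0.07, Polr2b beside Igfbp7 by 0.06 and Cop1 beside Pappa2 by 0.12. Adgrl3, an adhesion receptor gene on the other side of Igfbp7, was 2.26-fold lower (249 and 110.1).

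Igf2 and Igf2r are imprinted, as are H19, Airn and Grb10. The probe set of H19, which also names Mir675, had 33425 and 36806, a difference of 0.14, beside 0.17 for Igf2. Airn, the long RNA that overlaps Igf2r and silences it on the paternal allele in many tissues, had 8887 and 4133 by its brightest probe set, a difference of -1.10, and its other 4 lay between -1.49 and -0.49. With equal array medians the brightest gave -0.82. A probe set naming both Airn and Igf2r had 180.4 and 196.0. Grb10 had 19238 and 22507 (0.23), with others at -0.35 and 0.35. Slc22a2, near Igf2r, was too weak to compare (42.3 and 16.7).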
